A study of Mus musculus with 9 samples.

Results

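The 36 genes described here are markers of T cells and natural killer (NK) cells, chosen by name as rows of the deposited table, which held 24493 genes in all. All 36 were in the table. They comprise the CD3 and zeta chains of the T cell receptor complex, coreceptors and adhesion receptors, the first enzymes and adaptor of receptor signalling, costimulatory and inhibitory receptors, transcription factors, cytotoxic granule genes, NK receptors and secreted signals. Their RNA was measured in 3 Usp22-KOA, 3 Usp22-KOB and 3 WT samples of the mouse pancreatic tumor cell line 6419c5, on the C57BL/6 strain background, labelled as late stage and taken from tumors grown under the skin of mice. Both knockout groups carry a knockout of Usp22, which encodes the deubiquitinase in the SAGA complex, and the WT group carries none. The labels name a single cell line for the 3 groups. What the letters A and B stand for, whether each knockout is a single clone, which mice carried the tumors, and how tumor cells were parted from other cells remain unstated in the labels. Values are in TPM, in which reads are divided by transcript length and each library then adds up to 1000000, so levels of different genes can be set side by side.

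T cells read fragments of proteins on MHC molecules through the T cell receptor, whose CD3 and zeta chains carry the signal inward to the kinases Lck and Zap70. CD8 T cells and NK cells kill targets by releasing granules with perforin, which makes pores, and granzymes, which are proteases. Inhibitory receptors such as PD-1 and CTLA-4 hold the response in check and are targets of cancer immunotherapy, and pancreatic tumors are known for holding few T cells. Most of these genes are not usual products of pancreatic epithelium. Their levels below are low beside those of the tumor cell markers in the same libraries.

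Promoter sequence is shown first for Gzma, Gzmb and Prf1, genes of the killing granule that were higher in both knockouts, and for Tigit, the inhibitory receptor gene that was lower. Each is the stretch of 250 bases before the annotated start in RefSeq (build GRCm38.p6), printed 5′ to 3′ on the gene's own strand. Capitals mark the letters TGTGGT, the core bound by RUNX factors, or their reverse complement ACCACA.
Gzma, minus strand, chr13:113100982-113101231: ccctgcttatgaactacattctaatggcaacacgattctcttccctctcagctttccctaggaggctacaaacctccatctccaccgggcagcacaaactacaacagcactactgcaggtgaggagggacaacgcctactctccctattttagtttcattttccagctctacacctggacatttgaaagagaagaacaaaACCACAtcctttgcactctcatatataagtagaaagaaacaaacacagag
Gzmb, minus strand, chr14:56262335-56262584: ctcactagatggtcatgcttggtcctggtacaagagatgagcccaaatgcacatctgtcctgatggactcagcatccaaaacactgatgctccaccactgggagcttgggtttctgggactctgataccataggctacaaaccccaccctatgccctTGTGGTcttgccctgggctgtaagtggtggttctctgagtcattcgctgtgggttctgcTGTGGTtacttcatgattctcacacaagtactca
Prf1, plus strand, chr10:61297586-61297835: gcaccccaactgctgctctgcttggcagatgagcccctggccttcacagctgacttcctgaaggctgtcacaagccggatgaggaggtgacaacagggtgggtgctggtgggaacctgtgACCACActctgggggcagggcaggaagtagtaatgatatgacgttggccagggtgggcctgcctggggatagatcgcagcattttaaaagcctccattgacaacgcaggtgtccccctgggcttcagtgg
Tigit, minus strand, chr16:43664185-43664434: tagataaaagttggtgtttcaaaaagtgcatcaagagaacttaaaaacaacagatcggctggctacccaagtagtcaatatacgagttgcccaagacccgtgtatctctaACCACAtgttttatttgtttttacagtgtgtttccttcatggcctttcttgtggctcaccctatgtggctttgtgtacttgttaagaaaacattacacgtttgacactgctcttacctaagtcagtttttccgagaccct
The letters occurred once before Gzma, Prf1 and Tigit and at 2 places before Gzmb, and the higher granule genes and the lower Tigit held them alike. RefSeq promoters were matched for 27 of the 36 genes, 1 per gene. On either strand TGTGGT was found in 10 of the 27 (37.0%), against 14.2% of 27025 promoters of the same length. The Ets letters AGGAAG were found in 14 (51.9%, against 29.2%), the T-box letters GGTGTGA in 3 (11.1%, against 3.31%) and the STAT letters TTCNNNGAA in 3 (11.1%, against 7.18%). None of the capitals shown overlaps a match of the other 3 motifs. These are matches of letters and show no binding.

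Usp22 itself had 9.77, 8.46 and 10.1 TPM in the Usp22-KOA samples and 11.8, 14.9 and 14.1 in those of Usp22-KOB, against 55.1, 54.5 and 56.4 TPM in WT, with the knockout and WT samples apart as labelled (exact two-sided permutation p = 0.0119, the smallest that 9 samples in groups of 6 and 3 allow). Each library had 13037 to 13940 genes at 1 TPM or above. The depth behind a value is unknown, since TPM does not keep it, and precision rests on how far the 3 samples of a group lie apart. The labels do not say that these came from separate mice, so p-values cover only how these samples scatter, which could be technical. The labelled tumor cells showed epithelial markers (Epcam, Krt8, Krt18, Krt19 and Cdh1) summing to 6096 to 6871 TPM in Usp22-KOA, 6212 to 7594 in Usp22-KOB and 6881 to 7362 in WT. These sums are mostly keratin: Epcam alone averaged 37.7 ± 15.2 TPM in Usp22-KOA and 31.3 ± 5.31 in Usp22-KOB, against 378.9 ± 18.4 TPM in WT. By limma 3 of the 5 were lower and 1 higher in Usp22-KOA, and 1, Epcam, was lower in Usp22-KOB. The same libraries held 11 pan-leukocyte markers at a sum of 491.8 to 993.6 TPM in Usp22-KOA, 829.9 to 1723 in Usp22-KOB and 345 to 609.6 in WT. Replicate 3 of each group stood apart for the T and NK cell genes: it was the lowest of its group for 32 of the 36 genes in Usp22-KOA, for 34 in Usp22-KOB and for 24 in WT. Counts of genes are therefore also given without it. The constant chains of the T cell receptor were not analysed here.

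T and NK cell genes were higher in both knockouts than in WT for most of the 36. Their values summed to 122.9 to 243.8 TPM in Usp22-KOA and 89.65 to 176.9 TPM in Usp22-KOB, against 57.75 to 78.45 TPM in WT, where 23 of the 36 averaged under 1 TPM. Much of the WT sum came from Tigit, at a mean of 24.4 TPM, and Tcf7, at 14.0 TPM, which were both lower in Usp22-KOA. For 22 genes each of the 6 knockout samples lay above each of the 3 WT samples, for 1 gene, Tigit, each lay below, and for 13 the groups overlapped. Of all 24493 genes, 8.82% had the 6 knockout samples above WT. The 3 Usp22-KOA samples lay above the 3 WT samples for 28 genes, against 20.9% of the table, and the 3 Usp22-KOB samples did so for 23, against 15.7%. Without replicate 3 of every group the 3 counts were 31, 32 and 33, against 12.2%, 24.7% and 20.7% of the table. In these bulk samples, fewer cells of a type and less RNA per cell cannot be told apart.

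**Figure D1:**
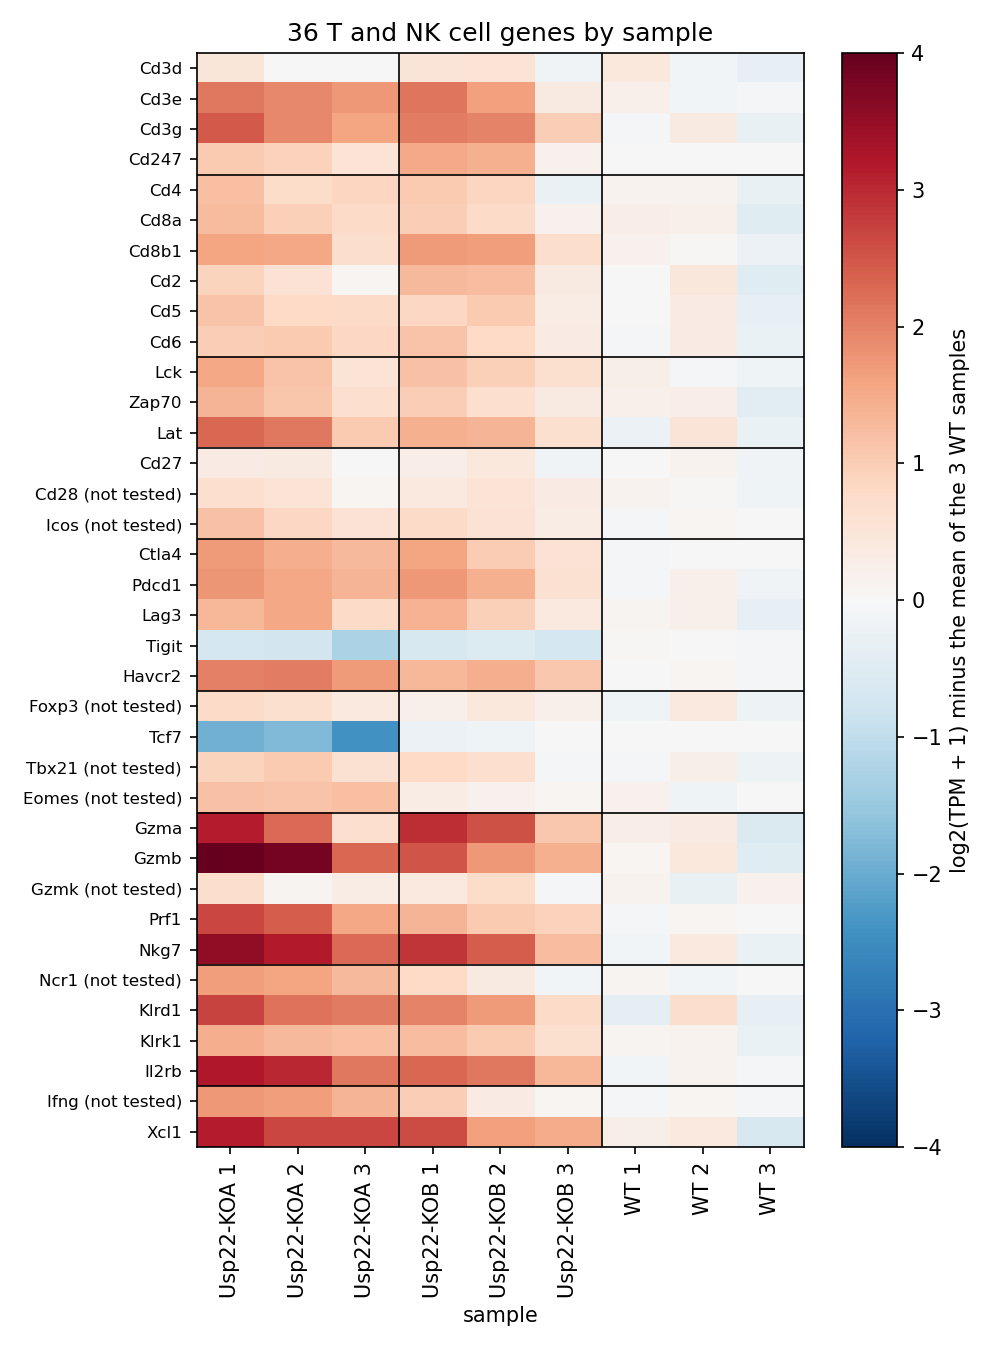
Levels of the 36 T and NK cell genes in each sample as log2(TPM + 1) minus the mean of the 3 WT samples (colour scale from -4 to 4, with values beyond it at the end colour), with Usp22-KOA, Usp22-KOB and WT samples in columns and genes in rows grouped by role. Most rows are red in both knockouts, Tigit is blue in both, Tcf7 is blue in Usp22-KOA, and replicate 3 of a group is usually the palest of its knockout columns.

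For testing, log2(TPM + 1) of the 13843 genes that averaged 1 TPM or more entered 1 limma fit over the 9 samples, and genes passed with a p under 0.05 after Benjamini-Hochberg adjustment, and these are termed called. This left 28 of the 36, and Cd28, Icos, Foxp3, Tbx21, Eomes, Gzmk, Ncr1 and Ifng fell under the filter. Because genes near 0 in WT pass it only where a knockout is high, the counts below describe the 28 and are not support by themselves. Against WT, 22 of the 28 were called higher and 2 lower in the mean of both knockouts, where 25.9% of all tested genes were higher and 24.1% lower. Usp22-KOA had 22 higher and 2 lower, beside 29.4% and 26.9% of all tested genes. Usp22-KOB had 20 higher and 1 lower, beside 18.7% and 18.4%. The median log2 difference of the 28 was 1.21 for both knockouts, 1.3 for Usp22-KOA and 1.05 for Usp22-KOB, and the medians over all tested genes were 0.0087, 0.019 and -0.0075. With no filter, over all 36 genes, 23, 26 and 10 were higher in the same 3 comparisons, beside 13.4%, 16.2% and 8.77% of the 24493 genes. Leaving out replicate 3 of every group, a choice made after the data were seen, gave 24, 23 and 24 higher. For this fit and the further alternative fits below, the share of all genes called higher was not counted.

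**Figure D2:**
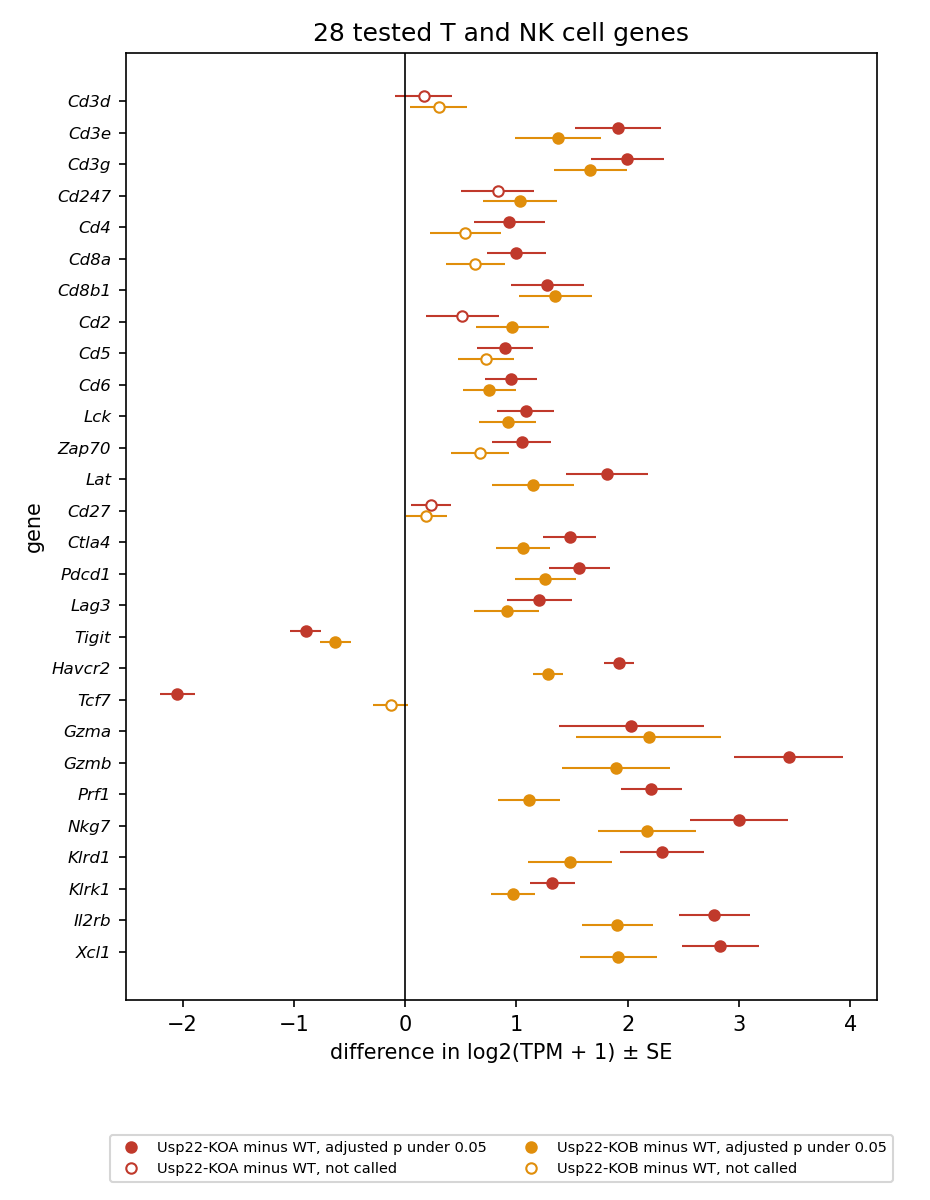
Log2 difference from WT (x axis, log2(TPM + 1), bars are standard errors) of the 28 tested genes, for Usp22-KOA (upper point of each pair) and Usp22-KOB (lower point), filled where the adjusted p was under 0.05. Gzmb shows the highest Usp22-KOA difference at 3.44 and Tcf7 the lowest at -2.05, and Cd3d and Cd27 are open in both.

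Of the CD3 and zeta chains, which join the T cell receptor to its kinases, 3 of 4 rose in the mean of both knockouts. In that mean 25.9% of all tested genes were called higher. The shares and the limit of the filter given above apply to each count by role below. Cd3e (chromosome 9, 44998740 to 45009627 in GRCm38), an invariant chain that every T cell receptor needs, stood at 7.07, 6.09 and 5.21 TPM in Usp22-KOA and 7.30, 4.86 and 1.39 TPM in Usp22-KOB, against 1.16, 0.749 and 0.769 TPM in WT. Each knockout sample was above each WT sample, but Usp22-KOB 3 was close to the highest WT sample. The log2 difference was 1.91 ± 0.38 in Usp22-KOA (limma adjusted p = 0.00237) and 1.37 ± 0.38 in Usp22-KOB (0.0214). Cd3g (44969572 to 44980431) rose by 2.0 ± 0.33 in Usp22-KOA (0.000725) and 1.66 ± 0.33 in Usp22-KOB (0.00434). Its values were 11, 7.24 and 5.53 TPM in Usp22-KOA and 7.90, 7.49 and 3.26 TPM in Usp22-KOB, against 1.09, 1.79 and 0.744 TPM in WT, without overlap of the knockouts and WT. Cd247, the zeta chain, averaged 1.49 ± 0.439 TPM in Usp22-KOA and 2.06 ± 1.3 in Usp22-KOB, against 0.387 ± 0.00692 in WT (SD, n = 3 each), and passed for Usp22-KOB (log2 1.03 ± 0.33, adjusted p = 0.0371) but not for Usp22-KOA (0.83 ± 0.33, 0.0579). Cd247 shares exon sequence with Pou2f1 on the opposite strand.

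Cd3d (44981786 to 44987339), the remaining CD3 chain, did not follow its neighbours on chromosome 9. It stood at 6.61, 4.5 and 4.27 TPM in Usp22-KOA and 6.66, 6.86 and 3.85 TPM in Usp22-KOB, against 6.28, 3.99 and 3.30 TPM in WT, so the 3 groups overlapped. The log2 difference was 0.17 ± 0.26 in Usp22-KOA (limma adjusted p = 0.603) and 0.30 ± 0.26 in Usp22-KOB (0.389). Its WT mean of 4.52 ± 1.56 TPM was above those of Cd3e (0.891 ± 0.229) and Cd3g (1.21 ± 0.534). Cd3d per Cd3e was therefore 0.831 ± 0.0985 in Usp22-KOA and 1.70 ± 0.960 in Usp22-KOB, against 5.02 ± 0.637 in WT. Cd3d and Cd3g lie on opposite strands with 1354 bases between them, and their annotated exons do not overlap. Cd3g per Cd3e, by contrast, was 1.27 ± 0.254 in Usp22-KOA, 1.66 ± 0.640 in Usp22-KOB and 1.43 ± 0.830 in WT, with overlap.

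Coreceptors and adhesion receptors rose for 4 of 6 genes in the mean of both knockouts. Cd8b1, the beta chain of the CD8 coreceptor of killer T cells, stood at 2.93, 2.89 and 1.14 TPM in Usp22-KOA and 3.28, 3.16 and 1.13 TPM in Usp22-KOB, against 0.486, 0.376 and 0.123 TPM in WT. All 6 knockout samples lay above WT, and the log2 difference was 1.28 ± 0.33 in Usp22-KOA (limma adjusted p = 0.00884) and 1.35 ± 0.33 in Usp22-KOB (0.0118). The alpha chain gene Cd8a had 5.12, 3.87 and 3.34 TPM in Usp22-KOA and 3.96, 3.30 and 1.82 TPM in Usp22-KOB, against 2.04, 1.92 and 0.827 TPM in WT. It rose in Usp22-KOA (1.0 ± 0.27, 0.0107) and overlapped WT in Usp22-KOB (0.63 ± 0.27, 0.0940). Cd4, the coreceptor of helper and regulatory T cells, had the same shape, with 5.47, 3.67 and 4.11 TPM in Usp22-KOA and 4.76, 4.06 and 1.33 TPM in Usp22-KOB, against 2.11, 2.08 and 1.3 TPM in WT. It passed for Usp22-KOA (0.94 ± 0.32, 0.0325) and not for Usp22-KOB (0.54 ± 0.32, 0.219). The call of Cd4 in Usp22-KOA ended on leaving out any of 5 libraries: Usp22-KOA 1 (adjusted p = 0.103), Usp22-KOA 3 (0.0589), WT 1 (0.0552), WT 2 (0.0548) or WT 3 (0.104).

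Cd8a made up 48.2% ± 3.25 of the summed Cd8a and Cd4 TPM in Usp22-KOA and 49.4% ± 7.39 in Usp22-KOB, against 45.3% ± 5.59 in WT (SD, n = 3 each), so the balance of both coreceptors overlapped between groups. Cd8b1 per Cd8a did not: it averaged 0.554 ± 0.204 in Usp22-KOA and 0.803 ± 0.170 in Usp22-KOB, against 0.195 ± 0.0448 in WT, with the lowest knockout sample at 0.341 and the highest WT sample at 0.239. Cd8a also occurs without Cd8b1, as a homodimer on some dendritic cells and other lymphocytes. Cd5 and Cd6, receptors that temper T cell receptor signals, were low throughout. Cd5 averaged 1.54 ± 0.377 TPM in Usp22-KOA and 1.29 ± 0.595 in Usp22-KOB, against 0.377 ± 0.316 TPM in WT, and Cd6 averaged 1.62 ± 0.192 TPM in Usp22-KOA and 1.34 ± 0.632 in Usp22-KOB, against 0.369 ± 0.281 TPM in WT. Cd6 passed in each knockout while Cd5 passed in Usp22-KOA and missed the threshold in Usp22-KOB (limma adjusted p = 0.0516). The Usp22-KOA call of Cd5 ended without Usp22-KOA 1 (0.0545) or WT 3 (0.0505). Cd2, which binds Cd48 in mice, averaged 4.02 ± 1.41 TPM in Usp22-KOA and 5.93 ± 2.18 in Usp22-KOB, against 2.55 ± 1.15 TPM in WT, and passed for Usp22-KOB (log2 0.96 ± 0.33, 0.0471).

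The 3 genes of proximal signalling rose in the mean of both knockouts. Lck, the kinase that phosphorylates the CD3 and zeta chains, stood at 6.97, 4.95 and 2.97 TPM in Usp22-KOA and 5.14, 4.24 and 3.19 TPM in Usp22-KOB, against 2.17, 1.61 and 1.40 TPM in WT. Lat, the adaptor on which the signalling complex assembles, had 9.58, 8.14 and 3.41 TPM in Usp22-KOA and 4.77, 4.51 and 2.35 TPM in Usp22-KOB, against 0.812, 2.07 and 0.764 TPM in WT. Both had every knockout sample above WT. Lck rose by 1.08 ± 0.25 in Usp22-KOA (limma adjusted p = 0.00562) and 0.92 ± 0.25 in Usp22-KOB (0.0204), and Lat by 1.81 ± 0.37 in Usp22-KOA (0.00251) and 1.15 ± 0.37 in Usp22-KOB (0.0374). Zap70, the kinase that docks on the phosphorylated chains, averaged 2.81 ± 0.883 TPM in Usp22-KOA and 1.93 ± 0.612 in Usp22-KOB, against 0.859 ± 0.475 TPM in WT, and passed for Usp22-KOA (1.05 ± 0.26, 0.00811) but not for Usp22-KOB (0.67 ± 0.26, 0.0746).

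Among the costimulatory receptors, Cd27, the receptor of Cd70, was the only 1 of 3 above the filter and was not called. It had 2.14, 2.21 and 1.55 TPM in Usp22-KOA and 2.03, 2.38 and 1.3 TPM in Usp22-KOB, against 1.49, 1.78 and 1.29 TPM in WT, with overlapping groups (limma adjusted p = 0.306 and 0.448). Icos, a costimulator of activated T cells, had every knockout sample above WT, at 1.91, 1.28 and 0.914 TPM in Usp22-KOA and 1.19, 0.938 and 0.597 TPM in Usp22-KOB, against 0.238, 0.373 and 0.273 TPM in WT. In the fit with no filter it passed for Usp22-KOA (log2 0.85 ± 0.17, adjusted p = 0.00926) and not for Usp22-KOB (0.55 ± 0.17, 0.0771). Cd28, the main costimulatory receptor, averaged 0.822 ± 0.382 TPM in Usp22-KOA and 0.778 ± 0.142 in Usp22-KOB, against 0.333 ± 0.150 TPM in WT, and was not called (both knockouts, no filter, 0.0783).

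The inhibitory receptors divided, with 4 higher and 1 lower in each knockout. Pdcd1, which encodes PD-1, stood at 3.36, 2.76 and 2.30 TPM in Usp22-KOA and 3.26, 2.41 and 0.971 TPM in Usp22-KOB, against 0.215, 0.479 and 0.165 TPM in WT. Ctla4, whose product competes with Cd28 for Cd80 and Cd86, stood at 3.86, 3.10 and 2.72 TPM in Usp22-KOA and 3.50, 2.08 and 1.24 TPM in Usp22-KOB, against 0.460, 0.526 and 0.535 TPM in WT. Neither gene overlapped WT in a single sample. Pdcd1 rose by 1.56 ± 0.27 in Usp22-KOA (limma adjusted p = 0.00107) and 1.26 ± 0.27 in Usp22-KOB (0.00701) on the log2 scale, and Ctla4 by 1.48 ± 0.24 in Usp22-KOA (0.000669) and 1.06 ± 0.24 in Usp22-KOB (0.00837). Lag3, a receptor for MHC class II, averaged 3.95 ± 1.3 TPM in Usp22-KOA and 3.10 ± 1.40 in Usp22-KOB, against 1.12 ± 0.390 TPM in WT, and rose by 1.21 ± 0.29 in Usp22-KOA (0.00675) and 0.91 ± 0.29 in Usp22-KOB (0.0378). Relative to Cd3e, Pdcd1 and Ctla4 overlapped WT in both knockouts: Pdcd1 per Cd3e averaged 0.456 ± 0.0172 in Usp22-KOA and 0.547 ± 0.134 in Usp22-KOB, against 0.346 ± 0.254 in WT, and Ctla4 per Cd3e averaged 0.526 ± 0.0187 in Usp22-KOA and 0.599 ± 0.254 in Usp22-KOB, against 0.598 ± 0.173 in WT. Lag3 per Cd3e averaged 0.639 ± 0.177 in Usp22-KOA and 0.829 ± 0.354 in Usp22-KOB, against 1.29 ± 0.535 in WT, with each Usp22-KOA sample below each WT sample and Usp22-KOB overlapping.

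Havcr2, which encodes TIM-3, was the most abundant of the 4 inhibitory receptors that rose. It had 14.7, 15.2 and 11.6 TPM in Usp22-KOA and 8.74, 9.71 and 7.15 TPM in Usp22-KOB, against 2.87, 3.12 and 2.70 TPM in WT, so the 3 groups stood apart from each other. Its differences from WT were 1.92 ± 0.13 in Usp22-KOA (limma adjusted p = 3.8e-06) and 1.28 ± 0.13 in Usp22-KOB (0.000153). TIM-3 is also known on macrophages, dendritic cells and mast cells. Mast cell markers (9 genes) summed to 1209 to 2509 TPM in Usp22-KOA and 96.27 to 129.7 in Usp22-KOB, against 151.9 to 186.4 in WT. Most of the WT sum is Mcpt4, which was lower in Usp22-KOB at 55.9 ± 0.930 TPM against 160.4 ± 15.8 in WT, whereas Tpsb2, Cma1 and Cpa3 were higher in both knockouts than in WT. Macrophage markers (10 genes) summed to 1204 to 3021 TPM in Usp22-KOA and 5325 to 9465 in Usp22-KOB, against 1906 to 2983 in WT. The part of these cells in the Havcr2 values was not tested.

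Tigit (chromosome 16, 43648867 to 43664146), the inhibitory receptor for Pvr and Nectin2, ran the other way. It stood at 14.6, 14.4 and 9.60 TPM in Usp22-KOA and 15.3, 16.2 and 14.7 TPM in Usp22-KOB, against 25.3, 24.9 and 23 TPM in WT. The knockout and WT samples did not overlap, and the WT level was the highest of the 36 genes. On the log2 scale Tigit fell by 0.89 ± 0.14 in Usp22-KOA (limma adjusted p = 0.00054) and by 0.63 ± 0.14 in Usp22-KOB (0.00767). Tigit per Cd3e averaged 2.09 ± 0.263 in Usp22-KOA and 5.34 ± 4.59 in Usp22-KOB, against 28.4 ± 5.87 in WT, so in WT the RNA of this receptor exceeded that of the CD3 chain many-fold.

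**Figure D3:**
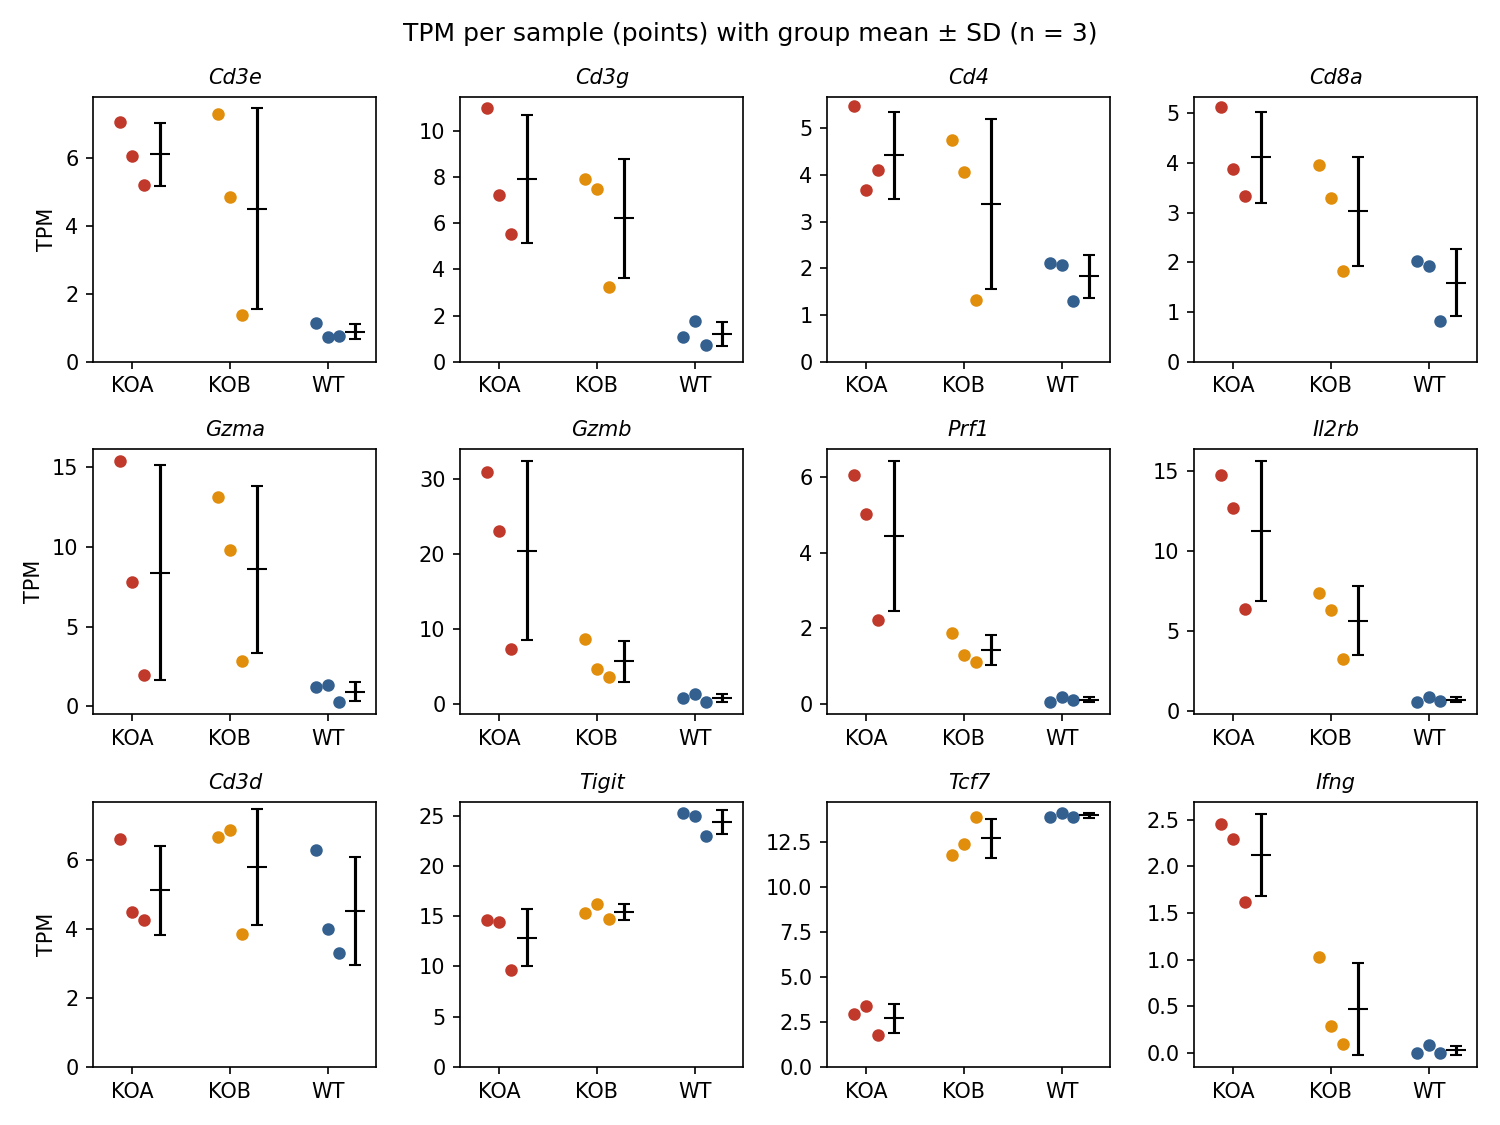
TPM in each sample (points) with the mean and SD of 3 samples beside them, for 12 genes in Usp22-KOA, Usp22-KOB and WT from left to right, each panel with its own linear y axis. Cd3e, Cd3g, Gzmb, Prf1 and Il2rb lie above WT in both knockouts, Cd3d overlaps, Tigit is lower in both, and Tcf7 is lower in Usp22-KOA only at 1.78 to 3.38 TPM.

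Tcf7 (chromosome 11, 52252371 to 52283014), which encodes the transcription factor TCF-1 of naive and memory-like T cells and of Wnt signalling, was lower in Usp22-KOA alone. It had 2.93, 3.38 and 1.78 TPM in Usp22-KOA. The values were 11.8, 12.4 and 13.9 TPM in Usp22-KOB and 13.9, 14.2 and 13.9 TPM in WT. The Usp22-KOA samples were below every other sample, while Usp22-KOB and WT overlapped. Tcf7 fell by 2.05 ± 0.16 in Usp22-KOA (limma adjusted p = 6.63e-06), was not called in Usp22-KOB (-0.13 ± 0.16, 0.544), and differed between the knockouts (-1.92 ± 0.16, 1.67e-05). Its call in the mean of both knockouts therefore rests on Usp22-KOA and ended when the 6 knockout samples formed 1 group (-1.09, adjusted p = 0.199). Like Tigit, it was abundant in WT relative to the CD3 chains, with 14.0 ± 0.139 TPM.

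The other 3 transcription factors were under the filter. Eomes, a T-box factor of memory CD8 T cells and NK cells, had 2.10, 2.01 and 2.14 TPM in Usp22-KOA and 0.671, 0.546 and 0.437 TPM in Usp22-KOB, against 0.537, 0.212 and 0.353 TPM in WT. Usp22-KOA stood apart from the other groups, and in the fit with no filter Eomes rose there (log2 1.18 ± 0.09, limma adjusted p = 0.000137) and not in Usp22-KOB (0.19 ± 0.09, 0.245), with a difference between the knockouts of 0.99 ± 0.09 (0.000464). Tbx21, the related T-bet gene of type 1 responses, had 1.08 ± 0.315 TPM in Usp22-KOA and 0.640 ± 0.494 in Usp22-KOB, against 0.155 ± 0.177 TPM in WT, where 1 library was listed at 0, and passed for Usp22-KOA (0.85 ± 0.26, 0.0452) with no filter. Foxp3, the factor of regulatory T cells, had 1.18 ± 0.299 TPM in Usp22-KOA and 0.714 ± 0.155 in Usp22-KOB, against 0.448 ± 0.350 in WT, overlapped between the 3 groups and passed for Usp22-KOA with no filter (0.60 ± 0.18, 0.0445). Relative to Cd4, Foxp3 averaged 0.269 ± 0.0644 in Usp22-KOA and 0.275 ± 0.179 in Usp22-KOB, against 0.236 ± 0.151 in WT, again with overlap. Foxp3 shares exon sequence with Ccdc22 and Ppp1r3f on the opposite strand and Flicr on its own, and since the sources used here do not say whether the libraries keep the strand, reads of these genes may not be told apart.

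Of the 5 cytotoxic granule genes 4 were tested, and all 4 rose in each knockout. Gzmb (chromosome 14, 56258838 to 56262260), the granzyme that sets off apoptosis in the target cell, had 30.9, 23.1 and 7.39 TPM in Usp22-KOA and 8.71, 4.71 and 3.62 TPM in Usp22-KOB, against 0.794, 1.28 and 0.222 TPM in WT. The knockouts did not overlap WT, and the log2 differences were 3.44 ± 0.49 in Usp22-KOA (limma adjusted p = 0.000294) and 1.89 ± 0.49 in Usp22-KOB (0.0151). Prf1 (chromosome 10, 61297833 to 61304680), the perforin gene, had 6.05, 5.03 and 2.23 TPM in Usp22-KOA and 1.87, 1.3 and 1.10 TPM in Usp22-KOB, against 0.050, 0.178 and 0.118 TPM in WT, and rose by 2.21 ± 0.28 in Usp22-KOA (0.00014) and 1.11 ± 0.28 in Usp22-KOB (0.0134). Here the 3 groups stood apart from each other. Granzyme B is also known in mouse mast cells, whose markers are given above for each group, and their part in the Gzmb values was not tested.

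Nkg7, a granule membrane protein needed for release, had 22.5, 16.8 and 8.63 TPM in Usp22-KOA and 13.6, 9.65 and 3.73 TPM in Usp22-KOB, against 0.845, 1.60 and 0.655 TPM in WT. It rose by 2.99 ± 0.44 in Usp22-KOA (limma adjusted p = 0.000371) and 2.18 ± 0.44 in Usp22-KOB (0.00494) with no overlap. Gzma (chromosome 13, 113093825 to 113100981), a granzyme with trypsin-like activity, was the most scattered within groups, at 15.4, 7.81 and 1.95 TPM in Usp22-KOA and 13.1, 9.81 and 2.86 TPM in Usp22-KOB, against 1.20, 1.3 and 0.233 TPM in WT. The lowest knockout sample exceeded the highest WT sample by less than the spread within a knockout. Gzma rose by 2.03 ± 0.65 in Usp22-KOA (0.0253) and 2.19 ± 0.65 in Usp22-KOB (0.0282), and was not called between the knockouts (-0.16 ± 0.65, 0.862). Its call in both knockouts ended without WT 3 (1.82, adjusted p = 0.0607), and its call in Usp22-KOA ended without Usp22-KOA 1 (1.47, 0.0879), Usp22-KOA 2 (1.92, 0.0696) or WT 3 (1.74, 0.0859). Gzmk, a granzyme of memory-like CD8 T cells, stayed under the filter at 0.620 ± 0.347 TPM in Usp22-KOA and 0.630 ± 0.451 in Usp22-KOB, against 0.254 ± 0.222 TPM in WT, and was not called (both knockouts, no filter, 0.326).

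Set against Cd3e in the same sample, the granule genes overlapped between groups for Gzmb and Nkg7. Gzmb per Cd3e averaged 3.19 ± 1.56 in Usp22-KOA and 1.59 ± 0.887 in Usp22-KOB, against 0.894 ± 0.732 in WT, and Nkg7 per Cd3e averaged 2.53 ± 0.786 in Usp22-KOA and 2.17 ± 0.442 in Usp22-KOB, against 1.24 ± 0.781 in WT. Prf1 per Cd3e averaged 0.704 ± 0.239 in Usp22-KOA and 0.439 ± 0.307 in Usp22-KOB, against 0.145 ± 0.0975 in WT, with the knockout samples above WT at 0.257 to 0.856 against 0.0433 to 0.238.

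NK receptors and the beta chain of the interleukin-2 receptor rose for 3 of 3 tested genes in each knockout. Il2rb (chromosome 15, 78479256 to 78495271), which NK cells and CD8 T cells use to sense interleukins 2 and 15, had 14.7, 12.7 and 6.36 TPM in Usp22-KOA and 7.38, 6.30 and 3.24 TPM in Usp22-KOB, against 0.586, 0.885 and 0.645 TPM in WT. Every knockout sample was above WT, and Il2rb rose by 2.78 ± 0.32 in Usp22-KOA (limma adjusted p = 8.08e-05) and 1.91 ± 0.32 in Usp22-KOB (0.00195). Klrd1 encodes CD94, the partner of NKG2 receptors for the class I molecule Qa-1. It had 9.90, 6.55 and 6.14 TPM in Usp22-KOA and 5.66, 4.54 and 1.85 TPM in Usp22-KOB, against 0.307, 1.73 and 0.356 TPM in WT, where WT 2 lay close to Usp22-KOB 3. Klrd1 rose by 2.31 ± 0.38 in Usp22-KOA (0.0007) and 1.48 ± 0.38 in Usp22-KOB (0.0143).

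Klrk1 encodes NKG2D, the activating receptor for stress ligands of the Raet1, H60 and Ulbp families. Its mean was 2.57 ± 0.321 TPM in Usp22-KOA and 1.82 ± 0.573 in Usp22-KOB, against 0.435 ± 0.220 TPM in WT. Klrk1 rose by 1.32 ± 0.20 in Usp22-KOA (limma adjusted p = 0.000432) and 0.97 ± 0.20 in Usp22-KOB (0.00541), and its knockout samples did not overlap WT. Ncr1, the NKp46 gene that marks NK cells and is scarcely used by T cells, was under the filter at 2.42, 2.21 and 1.65 TPM in Usp22-KOA and 0.874, 0.383 and 0 TPM in Usp22-KOB, against 0.150, 0 and 0.0578 TPM in WT. Usp22-KOA stood above the other groups and Usp22-KOB overlapped WT. In the fit with no filter Ncr1 rose in Usp22-KOA (1.53 ± 0.23, 0.00214), was not called in Usp22-KOB (0.36 ± 0.23, 0.364) and differed between the knockouts (1.16 ± 0.23, 0.00903).

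Of the secreted signals, Xcl1, the chemokine that draws cross-presenting dendritic cells through Xcr1, had 12.7, 8.82 and 8.89 TPM in Usp22-KOA and 8.44, 3.84 and 3.33 TPM in Usp22-KOB, against 0.834, 1.01 and 0 TPM in WT. It rose by 2.83 ± 0.35 in Usp22-KOA (limma adjusted p = 0.00012) and 1.91 ± 0.35 in Usp22-KOB (0.00284), with each knockout sample above WT. Xcl1 shares exon sequence with the predicted gene Gm20743 on the opposite strand. Ifng, the type II interferon of T and NK cells, was under the filter, at 2.46, 2.30 and 1.62 TPM in Usp22-KOA and 1.03, 0.293 and 0.0962 TPM in Usp22-KOB, against 0, 0.0844 and 0 TPM in WT. Each knockout sample exceeded WT, and with no filter Ifng rose in Usp22-KOA (log2 1.60 ± 0.23, 0.00188) but was not called in Usp22-KOB (0.47 ± 0.23, 0.232), with a difference between the knockouts of 1.13 ± 0.23 (0.0111). Both genes were listed at 0 in WT libraries, so no fold is given.

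Between the knockouts, 4 of the 28 tested genes were higher in Usp22-KOA than in Usp22-KOB and 1 was lower, beside 27.5% and 24.2% of all tested genes. The higher 4 were Gzmb (1.55 ± 0.49, limma adjusted p = 0.0252), Prf1 (1.10 ± 0.28, 0.00927), Il2rb (0.87 ± 0.32, 0.0461) and Havcr2 (0.64 ± 0.13, 0.00359), and the lower one was Tcf7. With no filter 5 of 36 were higher, beside 14.8% of genes, namely Prf1, Havcr2, Eomes, Ncr1 and Ifng. Gzmb (limma adjusted p = 0.0878) and Il2rb (0.131) were not called in that fit. By sample, Usp22-KOA lay above Usp22-KOB for 7 of the 36 genes, beside 19.3% of the table: Havcr2, Eomes, Prf1, Ncr1, Klrd1, Ifng and Xcl1. Without replicate 3 this held for 17, beside 27.4% of the table, and limma called 5 higher, with Lat added, and 2 lower, with Cd247 added. None of the 4 CD3 and zeta chains and none of the coreceptors passed between the knockouts (Cd3e 0.54 ± 0.38, adjusted p = 0.273, and Cd8b1 -0.07 ± 0.33, 0.873). The call of Il2rb ended without Usp22-KOA 1 (0.65, 0.150), Usp22-KOA 2 (0.75, 0.131), Usp22-KOB 2 (0.97, 0.0688), Usp22-KOB 3 (0.58, 0.140), WT 1 (0.0636), WT 2 (0.0603) or WT 3 (0.0636). That of Gzmb ended without Usp22-KOA 1 (1.16, 0.0859), Usp22-KOA 2 (1.37, 0.0798), Usp22-KOB 2 (1.47, 0.0730) or Usp22-KOB 3 (1.32, 0.0797). Only the 2 groups themselves in the fit, a pseudocount of 0.1, or no filter, left 2 of the 4.

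The 20 higher calls of Usp22-KOB moved more on leaving out 1 library than those of Usp22-KOA, for which 19 to 23 were counted. The share of all genes called higher was not counted in these fits, so this may not be particular to these genes. The Usp22-KOB calls numbered 9 without Usp22-KOB 1, 11 without Usp22-KOB 2, 13 without WT 1 and 10 without WT 3. Without Usp22-KOB 3, the library with the lowest values, 23 were called. Cd3e, for example, was not called in Usp22-KOB without Usp22-KOB 1 (log2 0.99, limma adjusted p = 0.0633), Usp22-KOB 2 (1.24, 0.0751), WT 2 (1.32, 0.0598) or WT 3 (1.33, 0.0617). With at least 1 library left out, Cd247, Cd2, Cd6, Lck, Lat, Lag3, Gzma, Gzmb, Prf1 and Klrd1 were lost as well, whereas Cd3g, Cd8b1, Ctla4, Pdcd1, Havcr2, Nkg7, Klrk1, Il2rb and Xcl1 stayed called without any single library. In the mean of both knockouts 17 to 24 were higher when 1 library was left out, with 17 without WT 3, where Cd247, Cd8a, Cd5, Zap70 and Gzma were lost. Cd247 was also lost without WT 1 (0.93, 0.0671) and WT 2 (0.93, 0.0628).

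Markers of leukocytes in general, T and NK cells among them, and of other leukocyte types also differed between groups. Their directions varied by list and knockout, and their part in the results was not tested beyond the covariate given here. Of 11 pan-leukocyte markers 6 were higher in the mean of both knockouts, 3 in Usp22-KOA and 8 in Usp22-KOB, and the list's mean log2(TPM + 1) averaged 5.48 in Usp22-KOA and 6.08 in Usp22-KOB, against 4.79 in WT. Macrophage markers were higher for 10 of 10 genes in Usp22-KOB and for 0 of 10 in Usp22-KOA by limma. Mast cell markers were higher for 9 of 9 in Usp22-KOA, and 4 were higher and 1, Mcpt4, lower in Usp22-KOB. Of 3 tested dendritic cell markers 0 were called in Usp22-KOA and 2 were higher in Usp22-KOB. Neutrophil markers summed to 575.7 to 1512 TPM in Usp22-KOA and 151.9 to 511.3 in Usp22-KOB, against 646.4 to 695.8 in WT. These sums are mostly S100a8 and S100a9. By limma 0 of 5 were called in Usp22-KOA, and 1 was higher and 1 lower in Usp22-KOB. Retnlg averaged 106.7 TPM in Usp22-KOB against 18.28 in WT, while the other genes of the list averaged lower there. B and plasma cell markers summed to 11.37 to 18.78 TPM in Usp22-KOA and 4.227 to 11.89 in Usp22-KOB, against 4.32 to 15.65 in WT. Most of these sums is Jchain, and of 2 tested genes 0 were called in either knockout. With the pan-leukocyte mean as a covariate, 11 T and NK cell genes stayed higher in the mean of both knockouts: Cd3g, Ctla4, Pdcd1, Havcr2, Gzmb, Prf1, Nkg7, Klrd1, Klrk1, Il2rb and Xcl1. For Usp22-KOA, 20 stayed of 22, with Cd4 and Cd5 lost. For Usp22-KOB, 2 stayed, Havcr2 and Il2rb, and between the knockouts 18 were higher in Usp22-KOA, Cd3e (1.03, limma adjusted p = 0.0304) and Cd3g (0.89, 0.00107) among them. The covariate itself was highest in Usp22-KOB, and the share of all genes called higher in this fit was not counted. These counts can therefore not be set beside the table.

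**Figure D4:**
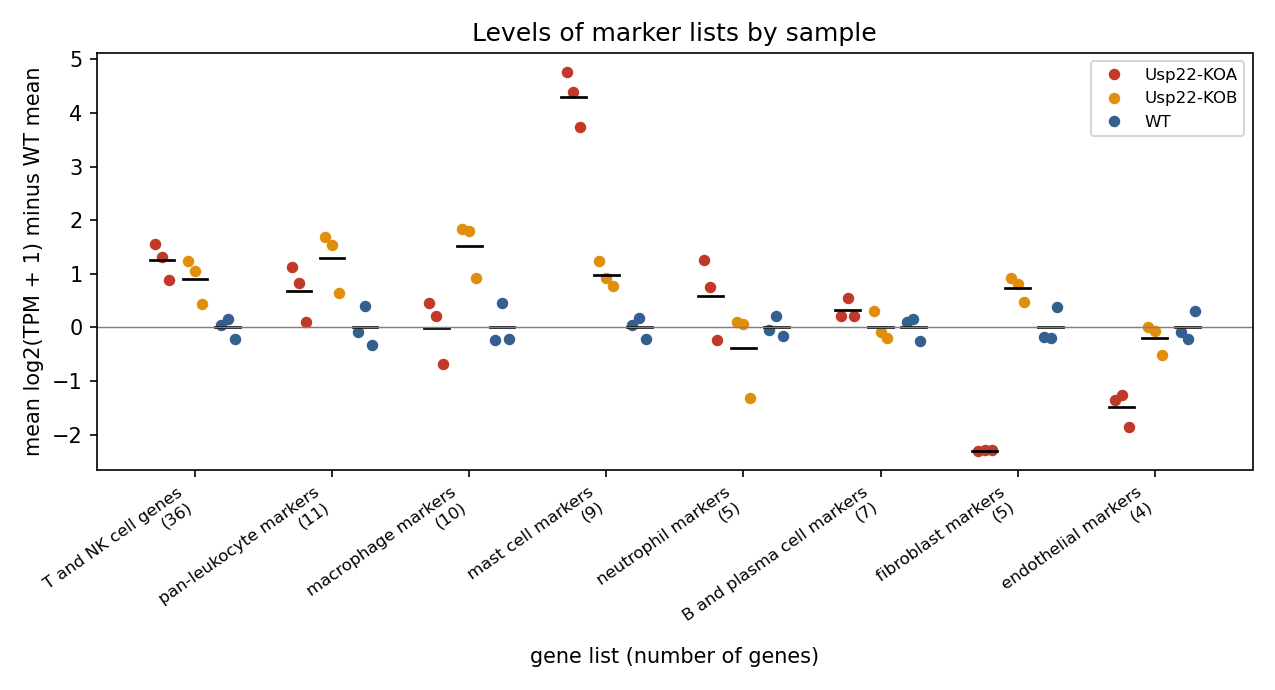
Mean log2(TPM + 1) of each marker list minus its WT mean (y axis) in each sample, with Usp22-KOA, Usp22-KOB and WT side by side, the group mean as a bar and the number of genes under each list. T and NK cell genes lie above WT in both knockouts, macrophage markers in Usp22-KOB, mast cell markers most in Usp22-KOA, and fibroblast markers are lower in Usp22-KOA.

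Per unit of the pan-leukocyte phosphatase Ptprc, which encodes CD45, the means ran in the order Usp22-KOA, Usp22-KOB, WT for 25 of the 36 genes, and for 13 of these all samples of the 3 groups were apart. WT was the highest for Cd3d, Cd27, Tigit and Tcf7, and for the other 7 WT lay between the knockouts. These counts were not made for all genes of the table. Ptprc itself was highest in Usp22-KOB, which lowers every ratio there, so the order alone shows nothing particular to the 36. Cd3g per 100 TPM of Ptprc was 38.6, 31.9 and 39.6 in the Usp22-KOA samples and 17.8, 17.7 and 15.6 in Usp22-KOB, against 8.05, 8.76 and 6.79 in WT, and the 3 groups were apart. Il2rb gave 51.8, 56.0 and 45.5 in the Usp22-KOA samples and 16.6, 14.9 and 15.5 in Usp22-KOB, against 4.35, 4.33 and 5.89 in WT, with the same separation. Gzmb gave 87.8 ± 30.4 in Usp22-KOA and 16.0 ± 4.42 in Usp22-KOB, against 4.72 ± 2.35 in WT. Cd3e gave 29.7 ± 6.66 in Usp22-KOA and 11.5 ± 4.90 in Usp22-KOB, against 6.42 ± 2.51 in WT, where Usp22-KOB 3 at 6.66 lay within the WT range of 3.66 to 8.57. For Cd3g per Ptprc replicate 3 was the highest of Usp22-KOA and the lowest of Usp22-KOB and of WT. Ptprc itself averaged 21.7 ± 7.27 TPM in Usp22-KOA and 35.9 ± 13.0 in Usp22-KOB, against 15.0 ± 4.92 TPM in WT.

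**Figure D5:**
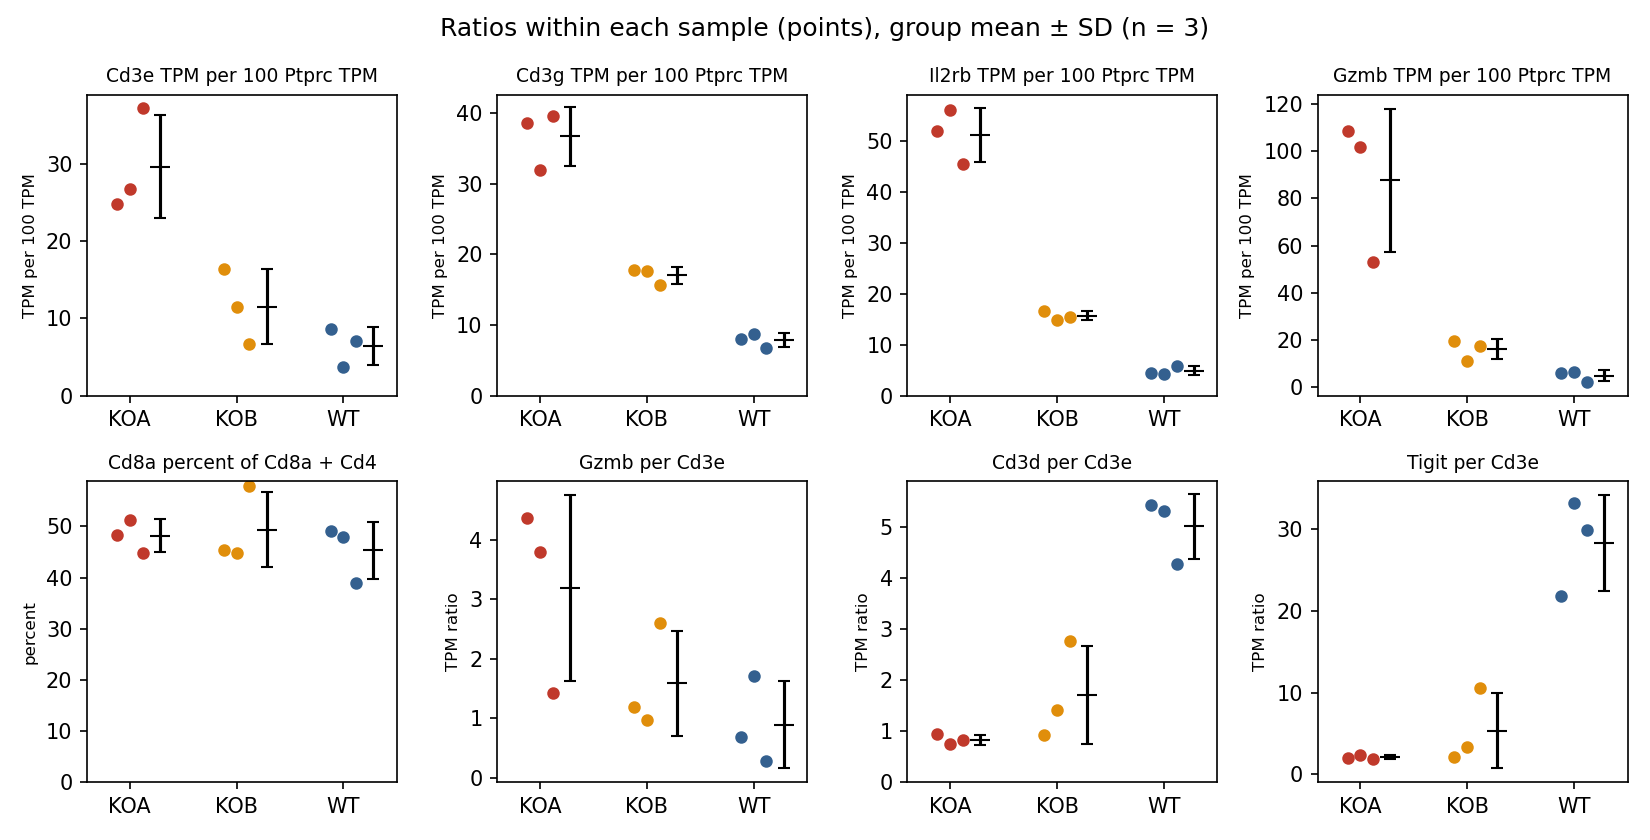
Ratios of TPM within each sample (points) with the mean and SD of 3 samples, in Usp22-KOA, Usp22-KOB and WT from left to right. Cd3g and Il2rb per 100 TPM of Ptprc separate the 3 groups, Cd8a as a percent of Cd8a and Cd4 overlaps, and Cd3d and Tigit per Cd3e are highest in WT.

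Other genes of the same pathways, from lists that do not hold the 36, are given beside the shares of all tested genes printed above, 25.9% higher and 24.1% lower in the mean of both knockouts. Of 18 further T cell receptor signalling genes, 11 were tested, and 4 were higher and 1 lower in the mean of both knockouts, with 3 higher and 2 lower for Usp22-KOA, and 4 higher and 0 lower for Usp22-KOB. They included Fyb, an adaptor (log2 0.76 ± 0.24, limma adjusted p = 0.0257), which was called in Usp22-KOB (0.0109) and not in Usp22-KOA (0.278), Ptpn22, a phosphatase that restrains Lck (0.94 ± 0.15, 0.000708), and Nfatc2, a factor activated by calcium, which fell by 0.50 ± 0.10 (0.00321). Ptpn22 and Nfatc2 were called in Usp22-KOA and not in Usp22-KOB (0.841 and 0.683). Ptpn22 had 24.2 ± 1.42 TPM in Usp22-KOA and 6.48 ± 1.89 in Usp22-KOB, against 6.05 ± 0.108 TPM in WT, and the knockouts differed in the direct test (1.78 ± 0.17, 4.07e-05). Of 12 further costimulation and inhibition receptors 3 of 6 tested were higher in the mean of both knockouts, namely Slamf6, Entpd1 and Tnfrsf4 (0.91 ± 0.29, 0.0269, 0.80 ± 0.26, 0.0282, and 0.68 ± 0.23, 0.0326), and Cd244, the fourth by p, was not called (0.30 ± 0.25, 0.334). Slamf6 and Entpd1 were called in Usp22-KOB and not in Usp22-KOA (limma adjusted p = 0.234 and 0.205), and Tnfrsf4 was called in Usp22-KOA and not in Usp22-KOB (0.134). Usp22-KOA had 1 higher and 1 lower on this list, and Usp22-KOB 3 higher.

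Among 14 tested cytotoxic effectors outside the 36, 6 were higher and 1 lower in the mean of both knockouts, with 7 higher and 2 lower for Usp22-KOA, and 5 higher and 1 lower for Usp22-KOB. Cst7, the cystatin of cytotoxic granules, had 10.4, 9.51 and 5.32 TPM in Usp22-KOA and 4.33, 4.79 and 2.42 TPM in Usp22-KOB, against 0.254, 0.221 and 0.588 TPM in WT, with 3 groups apart (both knockouts 2.29 ± 0.23, limma adjusted p = 5.99e-05). Ccl5, a chemokine of activated T cells, rose by 1.97 ± 0.40 (0.00294). Gzmf rose by 2.40 ± 0.28 (0.000138), with 3.75 ± 0.33 in Usp22-KOA and 1.05 ± 0.33 in Usp22-KOB, while Gzme fell by 0.81 ± 0.18 (0.00561). However, Gzmc to Gzmf are near-identical neighbours between which reads can be split, so these values are uncertain. Both tested NK receptors beyond the 36, of 12 listed, were higher: Klrc1, the NKG2A partner of Klrd1, by 1.5 ± 0.17 (9.9e-05), and Klre1 by 1.37 ± 0.32 (0.00714). Klrc1 had 3.65, 3.80 and 2.77 TPM in Usp22-KOA and 2.32, 1.91 and 1.15 TPM in Usp22-KOB, against 0.222, 0.139 and 0.319 TPM in WT.

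Of 11 tested lymphocyte transcription factors 1 was higher and 5 lower in the mean of both knockouts and in Usp22-KOA, while 4 were higher and 3 lower in Usp22-KOB. In the mean of both knockouts Id2 fell by 0.99 ± 0.10 (limma adjusted p = 6.49e-05), Prdm1 by 0.95 ± 0.12 (0.000217) and Tox by 0.91 ± 0.13 (0.000419), though Id2 missed the threshold in Usp22-KOB (0.0579). These genes are used by lymphocytes and also outside them, and Id2 stood at 52.3 ± 7.72 TPM in Usp22-KOA and 132.6 ± 12.8 in Usp22-KOB, against 166.5 ± 15.2 TPM in WT, above any of the 36. Of 18 tested cytokine and homing receptors 9 were higher and 2 lower in the mean of both knockouts, with 6 higher and 3 lower for Usp22-KOA, and 9 higher and 1 lower for Usp22-KOB. Il15ra, which presents interleukin-15 to Il2rb, had 21.7 ± 2.83 TPM in Usp22-KOA and 11.8 ± 0.358 in Usp22-KOB, against 4.45 ± 0.342 TPM in WT (1.64 ± 0.09, 1.43e-06). Il2rg, the shared gamma chain, and Cxcr6, a homing receptor of tissue T cells, rose by 1.41 ± 0.28 (0.0028) and 1.09 ± 0.16 (0.000567), and Il18r1 fell by 1.74 ± 0.12 (6.97e-06). Il18r1 had 2.15 ± 0.223 TPM in Usp22-KOA and 15.25 ± 2.56 in Usp22-KOB, against 23.02 ± 3.475 TPM in WT.

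Ligands and partners of the 36 were higher for 10 of 18 tested genes and lower for 1 in the mean of both knockouts, with 12 higher and 2 lower for Usp22-KOA, and 8 higher and 2 lower for Usp22-KOB. H2-T23, the Qa-1 molecule read by Klrd1 with Klrc1, had 615.4 ± 42.3 TPM in Usp22-KOA and 441.3 ± 21.5 in Usp22-KOB, against 111.4 ± 11.9 TPM in WT (2.22 ± 0.07, limma adjusted p = 1.07e-07), and reads of class I genes can be shared between relatives. Nectin2, a ligand of Tigit, was lower together with its receptor, at 37.3 ± 2.54 TPM in Usp22-KOA and 70.0 ± 8.45 in Usp22-KOB, against 129.2 ± 4.64 TPM in WT. The ligand gene Pvr was not called in the mean of both knockouts (-0.147 ± 0.065, limma adjusted p = 0.0890). Pvr had 23.3 ± 1.10 TPM in Usp22-KOA, where it was called lower (0.0028), and 31.8 ± 2.92 in Usp22-KOB, against 30.2 ± 0.581 TPM in WT. Raet1d, a ligand of Klrk1, had 8.39, 8.46 and 9.15 TPM in Usp22-KOA and 0.171, 0.194 and 0.281 TPM in Usp22-KOB, against 0.400, 0 and 0.154 TPM in WT. Raet1d was thus higher in Usp22-KOA and not in Usp22-KOB (direct difference 2.99 ± 0.16, 1.59e-06), although Raet1 genes are close relatives. Lgals9, a ligand of Havcr2, rose by 0.56 ± 0.06 (8.77e-05).

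Within groups, most of the tested genes varied with the CD3 chains from sample to sample. Over the 9 samples, after each group mean was subtracted, the Pearson correlation with the mean log2(TPM + 1) of Cd3d, Cd3e and Cd3g was 0.967 for Cd4, 0.935 for Klrk1, 0.929 for Cd247 and Pdcd1 and 0.899 for Nkg7. It was lower for Prf1 (0.565) and Tigit (0.489), and -0.040 for Tcf7. These values describe 9 samples that share the low replicates numbered 3, and are given with no test. The 10 other genes most like the CD3 chains by this measure were Nfkbia (0.989), Ttc7b (0.988), Pik3r5 (0.987), Amz1 (0.985), Fam49a, Ntng2 (0.979), Acod1 (0.976), H2-K2 (0.974), Tmem141 (0.973) and Cryzl2, from 0.970 upward, and none of them is a T or NK cell marker of the lists used. The measure leaves out differences between groups: Tmem141 and Cryzl2 had all 6 knockout samples below WT. With no group mean subtracted, their correlations were -0.203 and -0.769, against 0.422 to 0.960 for the others.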

How the data were processed

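The authors deposited 1 table of TPM values for 24493 genes in 9 samples, from polyadenylated RNA. Salmon, DESeq2 and the build mm10 are named per the submitters' processing notes, with roles, versions and annotation not given in the sources used here. TPM sums to 1000000 in each library, so a gene's value also moves with the rest of the library. No column was left over.

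A pseudocount of 1 was added to the deposited TPM before taking log2, and this understates the change of low genes. Genes averaging 1 TPM or more (13843, leaving out 10650) entered 1 limma fit with 1 mean per group for the 3 groups and an intensity trend, so that groups of 3 share their estimate of the spread. Contrasts set both knockouts, then Usp22-KOA and Usp22-KOB singly, against WT, and lastly Usp22-KOA against Usp22-KOB, with Benjamini-Hochberg adjustment over the tested genes and a threshold of 0.05. Errors of log2 differences are standard errors, and group values are mean ± SD of 3 samples. Usp22 was also tested by an exact permutation. The fit was checked on simulated data.

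The 36 genes and the 17 further lists were chosen with earlier results of these data known. Named were Usp22, the 36, up to 4 genes of each further list by the smallest adjusted p for both knockouts, markers of other cells where their level stood beside a result, and the 10 genes most like the CD3 chains. Coordinates are from GENCODE and RefSeq on GRCm38, another name for mm10, by gene symbol. Alternatives were pseudocounts of 0.1 and 5, no filter or a mean of 5 TPM, median-of-ratios scaling, quantile normalization, no trend, array weights, a block for the replicate number, fewer groups, the 6 knockout samples as 1 group, a leukocyte covariate and omission of samples. Software was limma 3.58.1 in R 4.3.3, and scipy 1.17.1, matplotlib 3.10.9, numpy 2.4.6 and pandas 2.3.3 in Python 3.11.15. Protein levels and cell counts were not analysed here.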

Additional observations from a re-analysis of the deposited data

Results flagged for a closer look

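For 5 of the 28 tested T and NK cell genes, the effect against WT differed between the knockouts by the direct test of that difference, with Usp22-KOA the higher for 4 and the lower for 1. Of all tested genes 27.5% were higher and 24.2% lower in Usp22-KOA, so these calls are no more frequent among the T and NK cell genes than in the table. The log2 difference of Usp22-KOA from Usp22-KOB was 1.55 for Gzmb (limma adjusted p = 0.0252), 1.10 for Prf1 (0.00927), 0.87 for Il2rb (0.0461), 0.64 for Havcr2 (0.00359) and -1.92 for Tcf7 (1.67e-05). Both knockouts are compared with the same 3 WT samples. The calls between the knockouts of Prf1, Havcr2 and Tcf7 held in each alternative that gave a value, whereas that of Il2rb was lost in 12 of 21 and that of Gzmb in 7 of 21. Mast cell markers, which summed to 1209 to 2509 TPM in Usp22-KOA and 96.27 to 129.7 TPM in Usp22-KOB, differed in the direction of Gzmb, Prf1, Il2rb and Havcr2, and their part was not tested.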

How the results depend on the processing

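Depth is unknown for TPM, and 23 of the 36 genes averaged under 1 TPM in WT, where the pseudocount and the filter weigh most. Higher calls for both knockouts (22) numbered 7 with a mean of at least 5 TPM, which leaves fewer genes, 11 with the pan-leukocyte covariate and 17 to 24 with 1 library left out. Lower calls (2) numbered 1 with the 6 knockout samples as 1 group, where the count of all genes called, both knockouts against WT, was 2946 in place of 6920. For Usp22-KOA, 22 higher calls numbered 7 at 5 TPM and 19 to 23 with 1 library left out. For Usp22-KOB, 20 numbered 10 with no filter, 7 at 5 TPM, 2 with the covariate and 9 to 23 with 1 library left out, and all genes called, Usp22-KOB against WT, numbered 2061 with the covariate in place of 5129. Between the knockouts, the 4 higher calls numbered 2 with a pseudocount of 0.1, 8 with array weights, 18 with the covariate, 2 with the groups compared alone and 2 to 6 with 1 library left out, and the 1 lower call numbered 2 with array weights and 1 to 2 with 1 library, or each replicate 3, left out. The cause of these moves was not tested. Shares of all genes called higher were counted for the main fit and the fit with no filter only.

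With the covariate, the Usp22-KOB difference turned to -0.23 for Cd2, -0.17 for Lat, -0.047 for Lag3 and -0.20 for Gzma, and that of Gzma between the knockouts to 0.96 (limma adjusted p = 0.0156). No call of the 36 turned in direction in another alternative. Both scalings moved the median of all genes by at most 0.0174 on the log2 scale.

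The labels link samples of the same replicate number by nothing but that number, and do not say whether these shared a batch. Their deviations from the group means correlated at 0.187, 0.0765 and 0.276 between the knockouts, but at -0.0863, 0.0770 and 0.0185 between Usp22-KOA and WT and at -0.125, 0.0227 and 0.0715 between Usp22-KOB and WT. With the replicate block, 24, 24 and 23 were higher against WT for both knockouts, Usp22-KOA and Usp22-KOB, and 7 between the knockouts, with Lat, Nkg7 and Xcl1 added. Each Usp22-KOA sample correlated best with the Usp22-KOB sample of its own number, but Usp22-KOB 2 correlated more with Usp22-KOA 1 (0.104), and numbers did not match against WT throughout. The fit of the groups compared alone gives no other value for both knockouts, since these are the 9 samples, and a mean of 5 TPM leaves most of the 36 without a value.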
